A study of Mus musculus with 12 samples.

Results

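Dendritic cells (DC) were sorted from lungs of male C57BL/6J mice, 8 to 12 weeks old, 16 h after 100 ng of lipopolysaccharide, from the outer membrane of bacteria, and 100 ug of the foreign protein ovalbumin had reached the airways in 50 ul of PBS. The population described here is the CD11bhi CD14lo conventional DC (CD14lo cDC), with 3 of the 12 arrays of the series. It was set against the mean of the 3 other population means: conventional DC with CD103 (CD103+ cDC), and DC derived from monocytes, both CD11bhi, that are CD14hi (CD14hi moDC) or Ly6Chi and inflammatory (Ly6Chi moDC), with 3 arrays each. All 4 groups had received both agents, and no untreated group was analysed here. Each array stands for cells pooled from 20 mice and sorted to a purity of over 93%, so the spread between arrays is a spread between pools. Attention was given to genes whose 3 CD14lo cDC arrays all lay above, or all below, the 9 other arrays. There were 295 genes above and 190 below, 485 in all, among 10929 genes tested.

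Conventional DC arise from bone marrow precursors committed to the lineage, under the growth factor that binds Flt3, and carry antigen from the lung to lymph nodes, where they prime T cells. The branch with CD103 depends on the transcription factor Irf8 and is known for presenting to CD8 T cells. The branch with CD11b depends on Irf4 and is known for presenting to CD4 T cells. Monocyte-derived DC share CD11b and CD11c with it, which is why CD14 and Ly6C are used to part them in an inflamed lung.

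Signals are in arbitrary units, and each log2 difference was taken after adding a pseudocount of 50.0003 to them. Folds of dim genes are therefore understated. Signals are given array by array or as mean ± SD of 3 arrays, and log2 differences with their SE from the limma fit. Over the 12 arrays, median signals ran from 72.4 to 109. Gapdh gave a 3' to 5' signal ratio, a measure of RNA integrity, of 1.85 ± 0.39 in CD14lo cDC (SD, n = 3 arrays here and below). The ratio was 2.74 ± 0.91 for CD103+ cDC, 1.68 ± 0.14 for CD14hi moDC and 1.66 ± 0.22 for Ly6Chi moDC. The bioB control, spiked in at hybridization, ran from 2036 to 2827 in CD14lo cDC, below all CD103+ cDC arrays (4285 to 6449) and overlapping CD14hi moDC (2812 to 6335) and Ly6Chi moDC (2362 to 3510). The part of these technical differences in the results was not tested. Array correlations within CD14lo cDC ran from 0.973 to 0.981 across genes.

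The label was checked against the genes of its sort markers. Cd14 had signals of 1714, 1257 and 1639 in CD14lo cDC, against 875, 596 and 1432 for CD103+ cDC, 11277, 9409 and 14322 for CD14hi moDC and 10965, 9073 and 12468 for Ly6Chi moDC. Every moDC array lay above the CD14lo cDC arrays, and 1 CD103+ cDC array lay among them. Itgam, which encodes CD11b, averaged 1115 ± 222 in CD14lo cDC, against 50.7 ± 20.5 for CD103+ cDC, 1481 ± 11.7 for CD14hi moDC and 2188 ± 177 for Ly6Chi moDC. The CD103 gene Itgae averaged 855 ± 345 in CD14lo cDC, against 15178 ± 2597 in CD103+ cDC, with lower signals in both moDC. Dpp4 (CD26), a peptidase of conventional DC, was 2.75-fold higher than the mean of the others and C5ar1 (CD88), which binds the complement fragment C5a, 2.09-fold lower (adjusted p = 1.5e-06 and 0.0088). Without the second CD14lo cDC array the C5ar1 difference was -0.78 with an adjusted p of 0.095. None of these genes separated the CD14lo cDC arrays from the 9 others, since Dpp4 was high in CD103+ cDC and Itgam in both moDC.

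Against the mean of the others, 835 genes were higher in CD14lo cDC (7.64% of the genes tested) and 778 lower (7.12%), at a limma adjusted p under 0.05. Such a call can rest on 1 of the other populations alone. Pair by pair, 15.3% were higher and 13.4% lower than in CD103+ cDC, 6.95% and 9.24% than in CD14hi moDC, and 14% and 11.2% than in Ly6Chi moDC. A stricter call asked for the difference to hold against each of the 3 other populations, with the largest of the 3 p values adjusted over all genes. It left 59 genes higher (0.54%) and 20 lower (0.183%), and all of them were among the separated genes. The share of genes with separated arrays was 2.7% above and 1.74% below, or 4.44% in all. Of the 295 genes above, 262 were also called against the mean, and of the 190 below, 160. Both calls and the separation use the same 12 arrays, so their overlap is no independent support. A gene was tested where its signal passed the median of an array on at least 3 of the 12 arrays. Of the 295 genes above, 12 passed through the CD14lo cDC arrays alone and so had to differ, and all 12 are among the 262 and 3 among the 59. Median folds against the mean were 1.79 above and 1.65 below, and 114 and 48 genes reached 2-fold. Taken in the same way, separated genes numbered 1303 above and 1329 below for CD103+ cDC, 375 and 201 for CD14hi moDC, and 804 and 1050 for Ly6Chi moDC. CD14lo cDC thus had fewer separated genes in each direction than any of the others, although the counts share arrays and were not compared by a test.

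**Figure D1:**
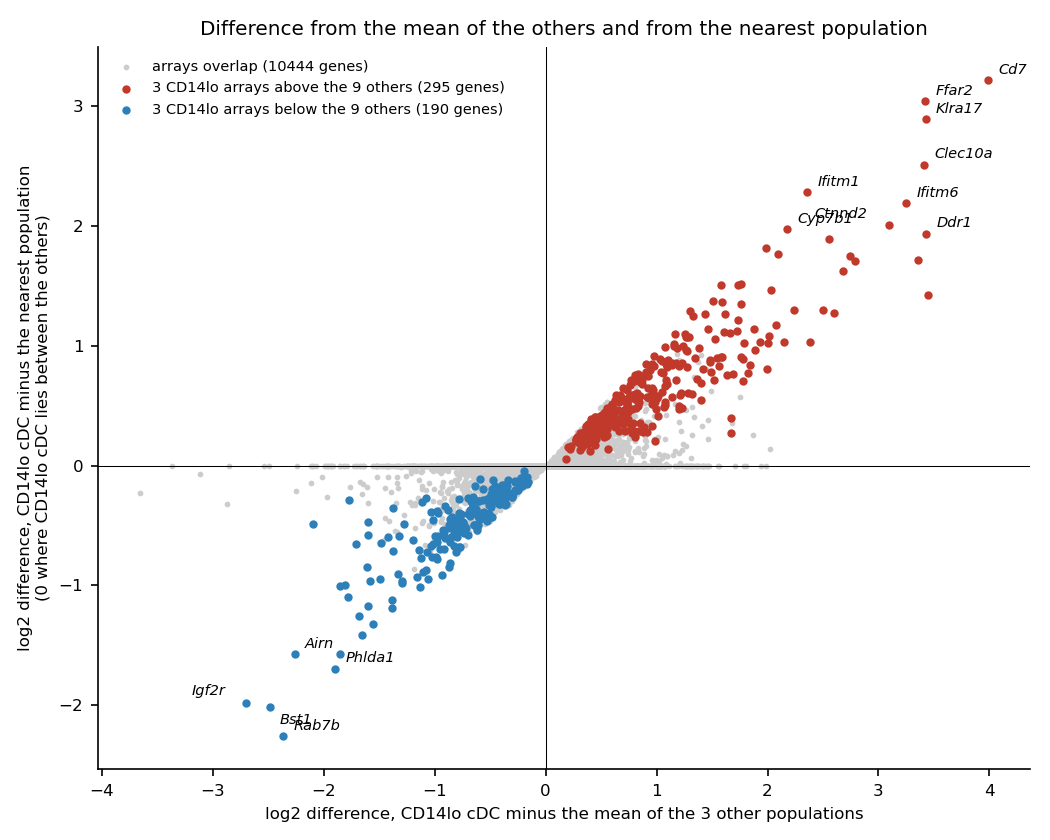
Each point is 1 of 10929 genes: the horizontal axis gives the log2 difference between CD14lo cDC and the mean of the 3 other populations, and the vertical axis the log2 difference from the nearest population (0 where CD14lo cDC lies between others). Red points are the 295 genes with all 3 CD14lo cDC arrays above the 9 others, led by Cd7, Ffar2, Klra17 and Clec10a, blue points the 190 genes below, led by Rab7b, Bst1 and Igf2r, and grey points genes whose arrays overlap.

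Cd7, Ffar2, Klra17 and Clec10a, which were named for this population with earlier results of these arrays known, stood furthest above the nearest other population among genes called against each. Cd7, a surface protein of the immunoglobulin superfamily best known from T and NK cells, had signals of 1299, 2422 and 1637 in CD14lo cDC, against 78.97, 43.9 and 54.3 for CD103+ cDC, 36.5, 8.10 and 14.2 for CD14hi moDC and 204, 159 and 82.3 for Ly6Chi moDC. The CD14lo cDC arrays lay far above the rest, whose highest value was on an Ly6Chi moDC array. The log2 difference from the mean was 3.98 ± 0.22, or 15.8-fold, and the difference from the nearest population, Ly6Chi moDC, was 9.29-fold (adjusted p against each = 3.5e-06).

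Ffar2, the receptor for short-chain fatty acids made by gut bacteria, gave 1194, 1359 and 1249 in CD14lo cDC, against 70.3, 48.6 and 66.1 for CD103+ cDC, 83.6, 30.02 and 54.2 for CD14hi moDC and 167, 99.3 and 77.00 for Ly6Chi moDC. Outside CD14lo cDC its signals lay around the median of an array, so the 8.21-fold difference from Ly6Chi moDC is held down by the pseudocount (adjusted p against each = 1.8e-06). Klra17 encodes Ly49Q, a lectin-like receptor for MHC class I. Its signals were 985, 1421 and 1328 in CD14lo cDC, against 57.98, 28.8 and 1.01 for CD103+ cDC, 156, 87.99 and 131 for CD14hi moDC and 78.7, 88.5 and 71.4 for Ly6Chi moDC. Every CD14lo cDC array was well clear of the others, with a 7.41-fold difference from CD14hi moDC (adjusted p against each = 5.4e-06). Clec10a, a C-type lectin that binds galactose-type sugars, was bright in CD14lo cDC and also well above the array medians in both moDC. It gave 4560.1, 6426 and 6073 in CD14lo cDC, against 239.8, 136 and 63.5 for CD103+ cDC, 629, 614 and 1221 for CD14hi moDC and 1097, 885 and 872 for Ly6Chi moDC. CD103+ cDC were lowest, the moDC arrays overlapped with each other and none reached CD14lo cDC, whose difference from Ly6Chi moDC was 5.70-fold (adjusted p against each = 6.5e-05).

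The 15 genes called against each that stood furthest above the nearest population also held membrane, junction and metabolic genes. Ifitm1 and Ifitm6 belong to a family of interferon-induced membrane proteins known for restricting virus entry. Ifitm6 gave 2809, 3389 and 3943 in CD14lo cDC, against 71.8, 62.7 and 19.7 for CD103+ cDC, 603, 413 and 729 for CD14hi moDC and 769, 669.6 and 656 for Ly6Chi moDC. Ifitm1 averaged 5914 ± 623 in CD14lo cDC, against 1139.6 ± 553 for CD103+ cDC, 1212 ± 366 for CD14hi moDC and 1146 ± 249.6 for Ly6Chi moDC. The 3 other populations had like levels of Ifitm1, whereas Ifitm6 was 34.5-fold higher in CD14lo cDC than in CD103+ cDC and 4.55-fold higher than in Ly6Chi moDC. Ddr1, a receptor tyrosine kinase that binds collagen, averaged 3699 ± 251 in CD14lo cDC, against 52.2 ± 37.2 for CD103+ cDC, 937 ± 142 for CD14hi moDC and 401 ± 112 for Ly6Chi moDC and was 3.82-fold above CD14hi moDC (adjusted p against each = 0.00027). Ctnnd2, delta-catenin, a junction protein best known from neurons, gave 2205, 1905 and 2482 in CD14lo cDC, against 261, 322 and 204 for CD103+ cDC, 427, 420.2 and 714 for CD14hi moDC and 70.5, 47.3 and 47.7 for Ly6Chi moDC and was 4.03-fold above CD14hi moDC. Bcl11a, a transcription factor that lymphocyte development requires, averaged 1691 ± 158 in CD14lo cDC, against 459 ± 255 for CD103+ cDC, 223 ± 32.98 for CD14hi moDC and 167 ± 98.5 for Ly6Chi moDC.

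Cyp7b1, which hydroxylates oxysterols, gave 381, 570.4 and 329 in CD14lo cDC, against 116, 20.5 and 93.95 for CD103+ cDC, 43.7, 48.8 and 78.5 for CD14hi moDC and 39.1, 55.4 and 21.7 for Ly6Chi moDC. St8sia1, the sialyltransferase that makes ganglioside GD3, averaged 1946 ± 406 in CD14lo cDC, against 205 ± 50.00 for CD103+ cDC, 595 ± 102 for CD14hi moDC and 132 ± 33.8 for Ly6Chi moDC. The keratin gene Krt80 averaged 3453 ± 195 in CD14lo cDC, against 524 ± 81.02 for CD103+ cDC, 919.7 ± 306 for CD14hi moDC and 979.7 ± 50.3 for Ly6Chi moDC. In each of these, every CD14lo cDC array was above all others. Bex6 averaged 790.3 ± 171 in CD14lo cDC, against 11.2 ± 10.5 for CD103+ cDC, 65.9 ± 41.1 for CD14hi moDC and 204 ± 9.76 for Ly6Chi moDC. All 15 genes were called against each population, with adjusted p values from 1.8e-06 for Ffar2 to 0.046 for Cd209a. Of the 59 genes called higher against each, 24 remained called when any 1 of the 12 arrays was left out, among them Cd7, Ffar2, Klra17, Clec10a, Ifitm1, Ifitm6, Ctnnd2, Cyp7b1, Ddr1, Bcl11a, Krt80, Cd209d, Bex6 and St8sia1. In all 8 other settings 21 of the 24 also kept the call, and Cd209d lost it with a pseudocount of 16. Cd209a remained called against each in 3 of the 12 fits with an array left out and in 3 of 8 other settings.

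**Figure D2:**
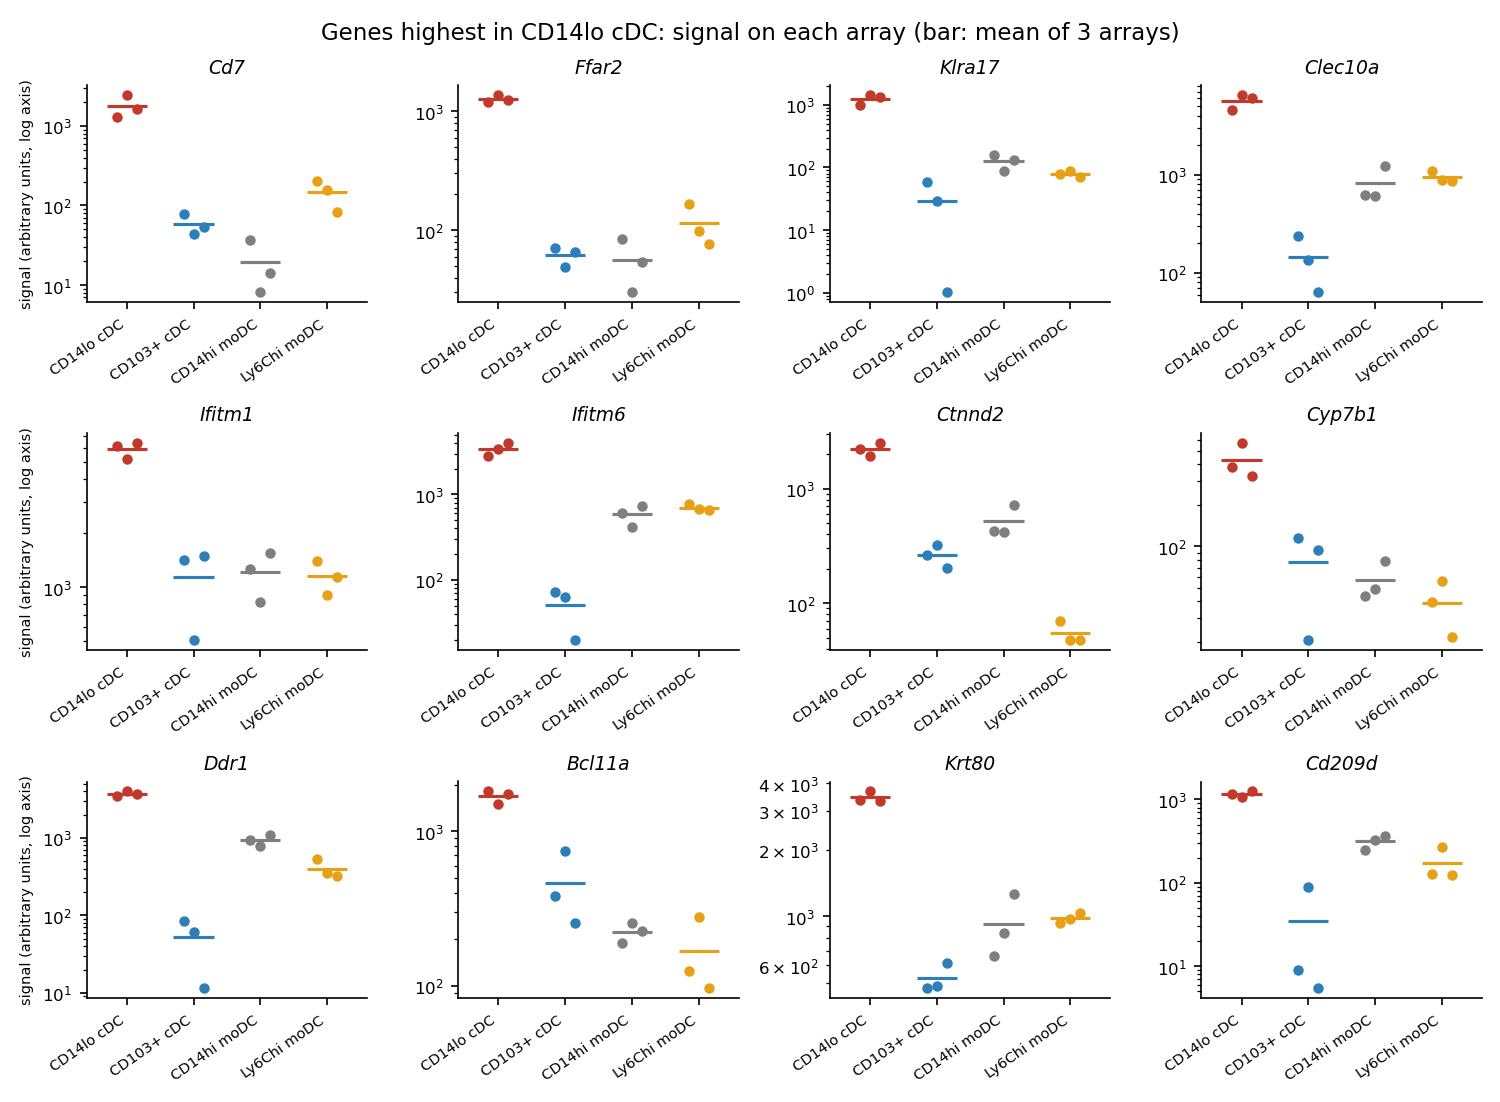
Signal of 12 genes on each of the 12 arrays, on log axes in arbitrary units, with CD14lo cDC at the left of every panel and a bar at the mean of 3 arrays. In every panel the 3 CD14lo cDC points lie above the 9 others, as in Cd7, where they run from 1299 to 2422 and the other arrays from 8.10 to 204.

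Promoters were searched for 13 of the genes described, 12 with higher signals in CD14lo cDC and Igf2r. Of these, 4 held a match to the motifs below, and all 4 are shown to place the matches, beside Klra17 as 1 of the 9 with none. The others with no match were Ifitm1, Ctnnd2, Ddr1, Bcl11a, Cd209a, St8sia1, Cd209c and Igf2r. The RefSeq table holds the 250 bases before the start, taken here at the first start listed for each gene (build GRCm38.p6, sequence given 5' to 3' along the strand of the gene). Capitals mark matches, on either strand, to 5 motifs searched as plain letters: GAGGAAGT for ETS factors such as Spi1, GGAA and then GAAA with any 2 bases between them for the ETS and IRF composite, GAAA and then GAAA with any 2 bases between them for IRF alone, TGANTCA for AP-1 and TGTGGT for RUNX.
Ffar2, minus strand, chr7:30823776-30824025: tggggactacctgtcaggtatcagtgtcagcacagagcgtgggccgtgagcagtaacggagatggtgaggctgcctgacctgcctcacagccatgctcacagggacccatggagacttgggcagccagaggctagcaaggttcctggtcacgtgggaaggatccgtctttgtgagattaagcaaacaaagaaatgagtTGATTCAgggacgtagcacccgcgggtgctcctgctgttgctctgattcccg
Klra17, minus strand, chr6:129876673-129876922: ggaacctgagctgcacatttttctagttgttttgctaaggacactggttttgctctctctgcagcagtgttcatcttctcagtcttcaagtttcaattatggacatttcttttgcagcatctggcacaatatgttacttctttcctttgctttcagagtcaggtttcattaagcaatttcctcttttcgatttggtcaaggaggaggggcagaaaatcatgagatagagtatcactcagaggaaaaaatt
Ifitm6, minus strand, chr7:141016893-141017142: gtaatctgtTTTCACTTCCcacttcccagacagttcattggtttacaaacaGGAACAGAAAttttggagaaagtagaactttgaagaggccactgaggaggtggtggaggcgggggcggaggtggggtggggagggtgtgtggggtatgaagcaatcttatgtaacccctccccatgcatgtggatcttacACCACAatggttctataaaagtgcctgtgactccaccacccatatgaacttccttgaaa
Cd209d, minus strand, chr8:3878500-3878749: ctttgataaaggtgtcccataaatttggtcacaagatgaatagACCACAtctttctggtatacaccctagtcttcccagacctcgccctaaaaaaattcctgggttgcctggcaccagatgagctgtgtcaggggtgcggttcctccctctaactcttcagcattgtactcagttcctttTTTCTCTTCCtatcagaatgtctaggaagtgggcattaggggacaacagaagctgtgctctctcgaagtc
Bex6, plus strand, chr16:32179550-32179799: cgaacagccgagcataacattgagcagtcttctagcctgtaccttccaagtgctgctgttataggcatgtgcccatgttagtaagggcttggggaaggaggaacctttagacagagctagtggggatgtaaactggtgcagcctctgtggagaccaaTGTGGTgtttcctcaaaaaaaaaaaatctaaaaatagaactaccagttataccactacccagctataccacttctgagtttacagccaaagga
The Ffar2 window holds 1 AP-1 match, 52 to 46 bases before the start. Ifitm6 holds the ETS and IRF composite at 241 to 232 and at 199 to 190 bases and a RUNX match at 59 to 54. Cd209d holds the composite at 70 to 61 bases and a RUNX match at 207 to 202, and Bex6 a RUNX match at 93 to 88. None of the matches overlap each other. The composite was found in 8 of the 243 promoters in the table for genes above (3.292%), in 1 of the 160 for genes below (0.625%) and in 2.376% of all 27025 promoters. Of the genes tested, 8933 have a promoter in the table, and 2.004% of these hold the composite. AP-1 was found in 6.173% of promoters of genes above and 5.625% of those below, against 4.176% of genes tested and 6.868% of all promoters. RUNX was found in 9.877% and 5.625%, against 10.68% of genes tested and 14.18% of all. IRF was found in 1.235% and 0.625%, against 2.765% and 3.038%, and ETS in 2.881% and 5.625%, against 2.653% and 2.442%. A match is a run of letters and no measured site.

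Among C-type lectins and other lectin-like receptors, which recognise sugars on microbes and on host cells, 18 of 36 tested genes were higher in CD14lo cDC and 7 lower, with 9 separated above and none below. The median difference was 0.34, against 0.02 over all genes tested. Beside this and each list count below stand the shares over all genes tested. These were 7.64% higher and 7.12% lower, with 2.7% separated above and 1.74% below. Cd209a, Cd209c, Cd209d and Cd209b, which RefSeq places in the same cluster and which belong to the family of the pathogen receptor DC-SIGN, were all separated above. Cd209a gave 7162, 6704 and 6756 in CD14lo cDC, against 469, 271 and 52.5 for CD103+ cDC, 1605, 2055 and 2657 for CD14hi moDC and 650.0, 609 and 351 for Ly6Chi moDC. Cd209c averaged 1927 ± 287 in CD14lo cDC, against 15.3 ± 4.09 for CD103+ cDC, 708 ± 224 for CD14hi moDC and 75.9 ± 38.3 for Ly6Chi moDC. Cd209d averaged 1162 ± 86.98 in CD14lo cDC, against 34.8 ± 47.8 for CD103+ cDC, 313 ± 58.9 for CD14hi moDC and 172 ± 81.3 for Ly6Chi moDC. In each of the 3 genes CD14hi moDC came second and CD103+ cDC last, with CD14lo cDC 3.28-fold, 2.68-fold and 3.36-fold above CD14hi moDC. Cd209b reached 240.0 ± 51.1 in CD14lo cDC, against 122 ± 38.5 in CD14hi moDC, a pair that was called (adjusted p = 0.04), while the call against each was not reached (adjusted p = 0.36). Whether probe sets of these related genes share signal was not tested.

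Cd300a, an inhibitory receptor for phospholipids of dying cells, averaged 4904 ± 431 in CD14lo cDC, against 417 ± 91.3 for CD103+ cDC, 2027 ± 365 for CD14hi moDC and 2511 ± 445 for Ly6Chi moDC and was called against each population. That call held in 9 of 12 fits with an array left out and in 6 of 8 other settings. The sialic acid receptors Siglecg (3.44-fold) and Cd22 (2.80-fold) and the lectin Clec4g (3.46-fold) were separated above and higher than the mean, but not called against each. Mgl2, the near relative of Clec10a, went another way. It gave 4987, 2262 and 2007 in CD14lo cDC, against 4596, 5194 and 4899.7 in CD14hi moDC and at most 651 in the other populations. It was thus higher than the mean (adjusted p = 0.00047) yet 1 CD14lo cDC array lay among those of CD14hi moDC and the others below. The receptors called lower were Clec4d, Clec4e, Clec5a, Siglec1, Cd302, Cd207 and Clec1a. Of these, Clec4d averaged 518 ± 286 in CD14lo cDC, against 221 ± 96.7 for CD103+ cDC, 3779 ± 639 for CD14hi moDC and 7365 ± 226 for Ly6Chi moDC. Cd207, langerin, averaged 24.5 ± 11.1 in CD14lo cDC, against 789 ± 214 in CD103+ cDC.

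Receptors best known from NK and other lymphoid cells came next: 11 of 26 tested genes were higher in CD14lo cDC and 1, Slamf6, lower, with a median difference of 0.36. Besides Cd7 and Klra17, the separated genes were Klrd1, Cd244a and Cd48. Klrd1 encodes CD94, which pairs with NKG2 chains to read MHC class I. It gave 6003, 6493 and 6758 in CD14lo cDC, against 2541, 2830.3 and 2388 for CD103+ cDC, 801, 921 and 1386 for CD14hi moDC and 509.9, 485 and 449 for Ly6Chi moDC, in an order of CD14lo cDC, CD103+ cDC, CD14hi moDC and Ly6Chi moDC with no overlap between neighbours. Cd244a (2B4), a receptor for CD48, averaged 6467 ± 274 in CD14lo cDC, against 4281 ± 121 for CD103+ cDC, 1885 ± 242 for CD14hi moDC and 2642 ± 181 for Ly6Chi moDC. Its ligand gene Cd48 was separated by a small margin, at 4167, 4248 and 4196 in CD14lo cDC and at most 4115 elsewhere, and was not called (adjusted p = 0.37). Klrk1, the activating receptor NKG2D, was 2.33-fold higher than the mean with 3774 ± 936 in CD14lo cDC, against 3055 ± 544 in CD103+ cDC (adjusted p = 0.31 for that pair). Il18rap, a chain of the interleukin 18 receptor, was 2.65-fold higher.

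The NK cell marker list moved with this result. Its summed signal over 9 genes ran from 7427 to 8465 in CD14lo cDC, against 3389 to 4070 for CD103+ cDC, 1947 to 2465 for CD14hi moDC and 1498 to 1864 for Ly6Chi moDC. Of the 4 genes bright enough to test, Klrd1 and Klre1 were higher. Klrd1, which stands in both lists, alone made up most of the sum. Ncr1, Nkg7, Eomes and Gzmb, which help define NK cells, had mean signals of 2.42, 20.6, 10.4 and 22.2 in CD14lo cDC, under the median of every array and within the range of the other population means or below it. Of the T cell markers, 4 were tested and none called, with a median difference of 0.19. Their summed signal over 10 genes ran from 1449 to 1835 in CD14lo cDC, against 1816 to 2163 for CD103+ cDC, 2134 to 2253 for CD14hi moDC and 1126 to 1224 for Ly6Chi moDC. The part of such cells in the result was not tested. In RNA of sorted pools, more cells with a message and more message per cell cannot be told apart.

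Receptors for metabolites, lipids and nucleotides that couple to G proteins went both ways: 13 of 40 were higher and 11 lower, with 5 separated above and 4 below. Of the 5 above, Ptger3 and S1pr5 passed the filter on dim signals through the CD14lo cDC arrays alone, so their signals are a description with no test. Ptger3 and Ptger2 encode receptors for prostaglandin E2. Ptger3 (EP3) gave 177, 177 and 118 in CD14lo cDC, against 37.1, 12.4 and 10.01 for CD103+ cDC, 61.4, 63.5 and 59.1 for CD14hi moDC and 2.65, 1.05 and 0.786 for Ly6Chi moDC. Ptger2 (EP2) gave 71.4, 35.8 and 58.3 in CD14lo cDC, against 307, 375 and 296 for CD103+ cDC, 275, 258 and 330.1 for CD14hi moDC and 195, 273 and 221 for Ly6Chi moDC. Ptger2 was separated below, with a difference from the mean of -1.65 ± 0.17, and called against each (adjusted p = 0.0009). Gpr18 averaged 1257 ± 293 in CD14lo cDC, against 339 ± 27.6 for CD103+ cDC, 496 ± 124 for CD14hi moDC and 463 ± 30.2 for Ly6Chi moDC and was called against each. S1pr5, a receptor for sphingosine 1-phosphate, had CD14lo cDC signals of 100.0, 633 and 227, which spread widely. Receptors separated below besides Ptger2 were Gpr65, which senses protons, the ADP receptor gene P2ry12, and Lpar6, a receptor for lysophosphatidic acid. Gpr65 averaged 1175 ± 180.0 in CD14lo cDC, against 2497 ± 794 for CD103+ cDC, 2438 ± 439 for CD14hi moDC and 3071 ± 305 for Ly6Chi moDC, and was called lower against each, a call kept in 7 of 12 fits with an array left out and lost with each array centred at its median or with no intensity trend. P2ry12 averaged 85.4 ± 8.41 in CD14lo cDC, against 175 ± 44.9 for CD103+ cDC, 334 ± 72.9 for CD14hi moDC and 464 ± 78.8 for Ly6Chi moDC.

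Several genes of oxysterol signalling could be read side by side. Ch25h makes 25-hydroxycholesterol, Cyp7b1 adds the second hydroxyl group, and Gpr183 is the receptor that guides DC along the product. Ch25h averaged 159 ± 78.3 in CD14lo cDC, against 165 ± 11.2 for CD103+ cDC, 1827 ± 429.9 for CD14hi moDC and 288 ± 68.4 for Ly6Chi moDC and was lower than the mean (adjusted p = 0.00011), but the difference from CD103+ cDC missed the threshold (adjusted p = 0.81). Cyp7b1 was higher against each population, as given above. Gpr183 averaged 2650.5 ± 281 in CD14lo cDC, against 1449 ± 359 for CD103+ cDC, 1872 ± 301 for CD14hi moDC and 1219.9 ± 379 for Ly6Chi moDC and was separated above, 1.41-fold over CD14hi moDC (adjusted p = 0.12 for the pair). In the list of sterol and fatty acid metabolism, 13 of 39 genes were higher and 6 lower, and only Sqle was separated above and Plin2, a coat protein of lipid droplets, below.

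Of 34 cadherin, junction and adhesion genes, 12 were higher, 7 lower and 5 separated above, of which Selp passed the filter on dim signals through the CD14lo cDC arrays alone. Endothelium markers moved with them: of 6 tested, Pecam1, Kdr and Eng were higher and none lower, and none were separated. Pecam1 lost the call in 9 of 23 alternative settings, Eng in 2 of 24 and Kdr in 1 of 24. The summed signal of the endothelium markers over 11 genes ran from 1776 to 2248 in CD14lo cDC, against 1090 to 1318 for CD103+ cDC, 1447 to 1765 for CD14hi moDC and 1391 to 1963 for Ly6Chi moDC. The part of such cells in the adhesion result was not tested. Cdh1 encodes E-cadherin, which joins cells to epithelium and to each other. It gave 2422, 2894 and 2094 in CD14lo cDC, against 145, 98.8 and 132 for CD103+ cDC, 234, 341 and 472 for CD14hi moDC and 1203, 952 and 837 for Ly6Chi moDC, with Ly6Chi moDC second, and was 2.41-fold above them (adjusted p against each = 0.0053). L1cam and Cadm3, cell adhesion molecules best known from nerves, were called higher against each, with averages in CD14lo cDC of 3350.3 ± 356 and 558 ± 87.7, against 1425 ± 225 and 239 ± 48.7 in the nearest population of each, CD103+ cDC and CD14hi moDC. With an array left out the call held in 12 of 12 fits for L1cam and in 5 of 12 for Cadm3, which also lost it with a pseudocount of 16 or no filter. The catenins that bind cadherin tails parted: Ctnnd2 was separated above, as given above, and Ctnnd1, p120 catenin, below. Ctnnd1 averaged 542 ± 11.3 in CD14lo cDC, against 1045 ± 198 for CD103+ cDC, 1537 ± 508 for CD14hi moDC and 1118 ± 47.04 for Ly6Chi moDC (adjusted p against each = 0.049). Ctnnd1 remained called against each in 3 of 12 fits with an array left out and in 2 of 8 other settings. Itgb3, the integrin chain that pairs with Itgav or Itga2b, averaged 210.4 ± 36.2 in CD14lo cDC, against 48.2 ± 44.5 in Ly6Chi moDC, and was called higher against each. The Itgb3 call held in 8 of 12 fits with an array left out and in 7 of 8 other settings. Itgav was separated below, 1.62-fold lower than the mean, and among 19 integrin genes 3 were higher and 7 lower.

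Of 18 genes of MHC class II presentation, 6 were higher, 2 lower and 4 separated above. Ciita, the master activator of class II genes, gave 2868, 3268 and 2829 in CD14lo cDC, against 1466, 1304 and 1349 for CD103+ cDC, 940.1, 896 and 1128 for CD14hi moDC and 1491, 1255 and 1307 for Ly6Chi moDC and was 2.13-fold above CD103+ cDC (adjusted p against each = 0.00031). H2-Oa, a chain of the H2-O complex that restrains peptide loading, averaged 3824 ± 319 in CD14lo cDC, against 1854 ± 193 for CD103+ cDC, 797 ± 347 for CD14hi moDC and 217 ± 5.30 for Ly6Chi moDC and was called against each (adjusted p = 0.03). That call held in 7 of 12 fits with an array left out, none of them without a CD14lo cDC array, and in 4 of 8 other settings. Its partner H2-Ob averaged 3926 ± 583 in CD14lo cDC, against 4237 ± 414 in CD103+ cDC, a difference that missed the threshold (adjusted p = 0.69). H2-DMb2, a chain of the loading complex, and the activator Rfx5 were separated above with folds of 1.94 and 1.80 over the mean. The classical class II gene H2-Aa averaged 20472 ± 801 in CD14lo cDC, against 26570.0 ± 3243 for CD103+ cDC, 23504 ± 4159 for CD14hi moDC and 19534 ± 2039.5 for Ly6Chi moDC and was not called (adjusted p = 0.39), nor was Cd74, the invariant chain (adjusted p = 0.23). The genes called lower were the endosomal proteases Ctsl and Lgmn.

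Of 86 transcription factors listed for myeloid and lymphoid lineages, 20 were higher and 7 lower, with 8 separated above and none below. Bcl11a and Hivep2 were called against each, Hivep2 in 9 of 12 fits with an array left out and in 7 of 8 other settings. Irf4, on which CD11b+ conventional DC depend, gave 2939.7, 2169 and 2464 in CD14lo cDC, against 802, 1283 and 721 for CD103+ cDC, 1336, 1318 and 1956 for CD14hi moDC and 506, 519 and 282 for Ly6Chi moDC, separated from but closest to CD14hi moDC (1.64-fold, adjusted p = 0.046 for the pair). Spib, an ETS factor known from plasmacytoid DC and B cells, averaged 1869 ± 275 in CD14lo cDC, against 1061 ± 241 for CD103+ cDC, 522 ± 64.00 for CD14hi moDC and 124 ± 12.5 for Ly6Chi moDC. Tbx21 (T-bet), known from NK and T helper 1 cells, averaged 482 ± 44.1 in CD14lo cDC, against 220.2 ± 95.3 for CD103+ cDC, 69.9 ± 50.4 for CD14hi moDC and 43.2 ± 22.4 for Ly6Chi moDC. Both were nearest to CD103+ cDC and called against the mean, not against each. Bach2, Foxo1 and Runx1 were separated above with folds of 2.54, 2.02 and 1.75 over the mean. Of the 3 other kept probe sets of Foxo1, 1 differed by -0.16 and the others by 0.80 and 0.52. Among the conventional DC core, which includes Bcl11a, Ctnnd2 and Ciita, 14 of 18 genes were higher and none lower, with a median difference of 1.12. Calls against the mean need not part the conventional DC from each other. Over 18 genes the core's summed signal ran from 57246 to 60604 in CD14lo cDC, against 93147 to 105484 for CD103+ cDC. It ran from 32932 to 44115 for CD14hi moDC and from 9024 to 11443 for Ly6Chi moDC. Flt3, the receptor of the conventional DC growth factor, averaged 2513 ± 246 in CD14lo cDC, against 6749 ± 891 for CD103+ cDC, 753 ± 88.4 for CD14hi moDC and 113 ± 34.3 for Ly6Chi moDC. Of the CD103+ DC list 12 of 19 were lower and 1 higher, and of the CD11b+ DC list 11 of 20 were higher and 1 lower. The CD11b+ list, summed over 22 genes, ran from 91868 to 104166 in CD14lo cDC, against 86034 to 116651 in CD14hi moDC. In CD103+ cDC and Ly6Chi moDC these sums ran from 61284 to 75925 and from 73550 to 75994. The 5 separated members of the CD11b+ list were Cd209a, Cd209c, Cd209d, Clec10a and Irf4.

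**Figure D3:**
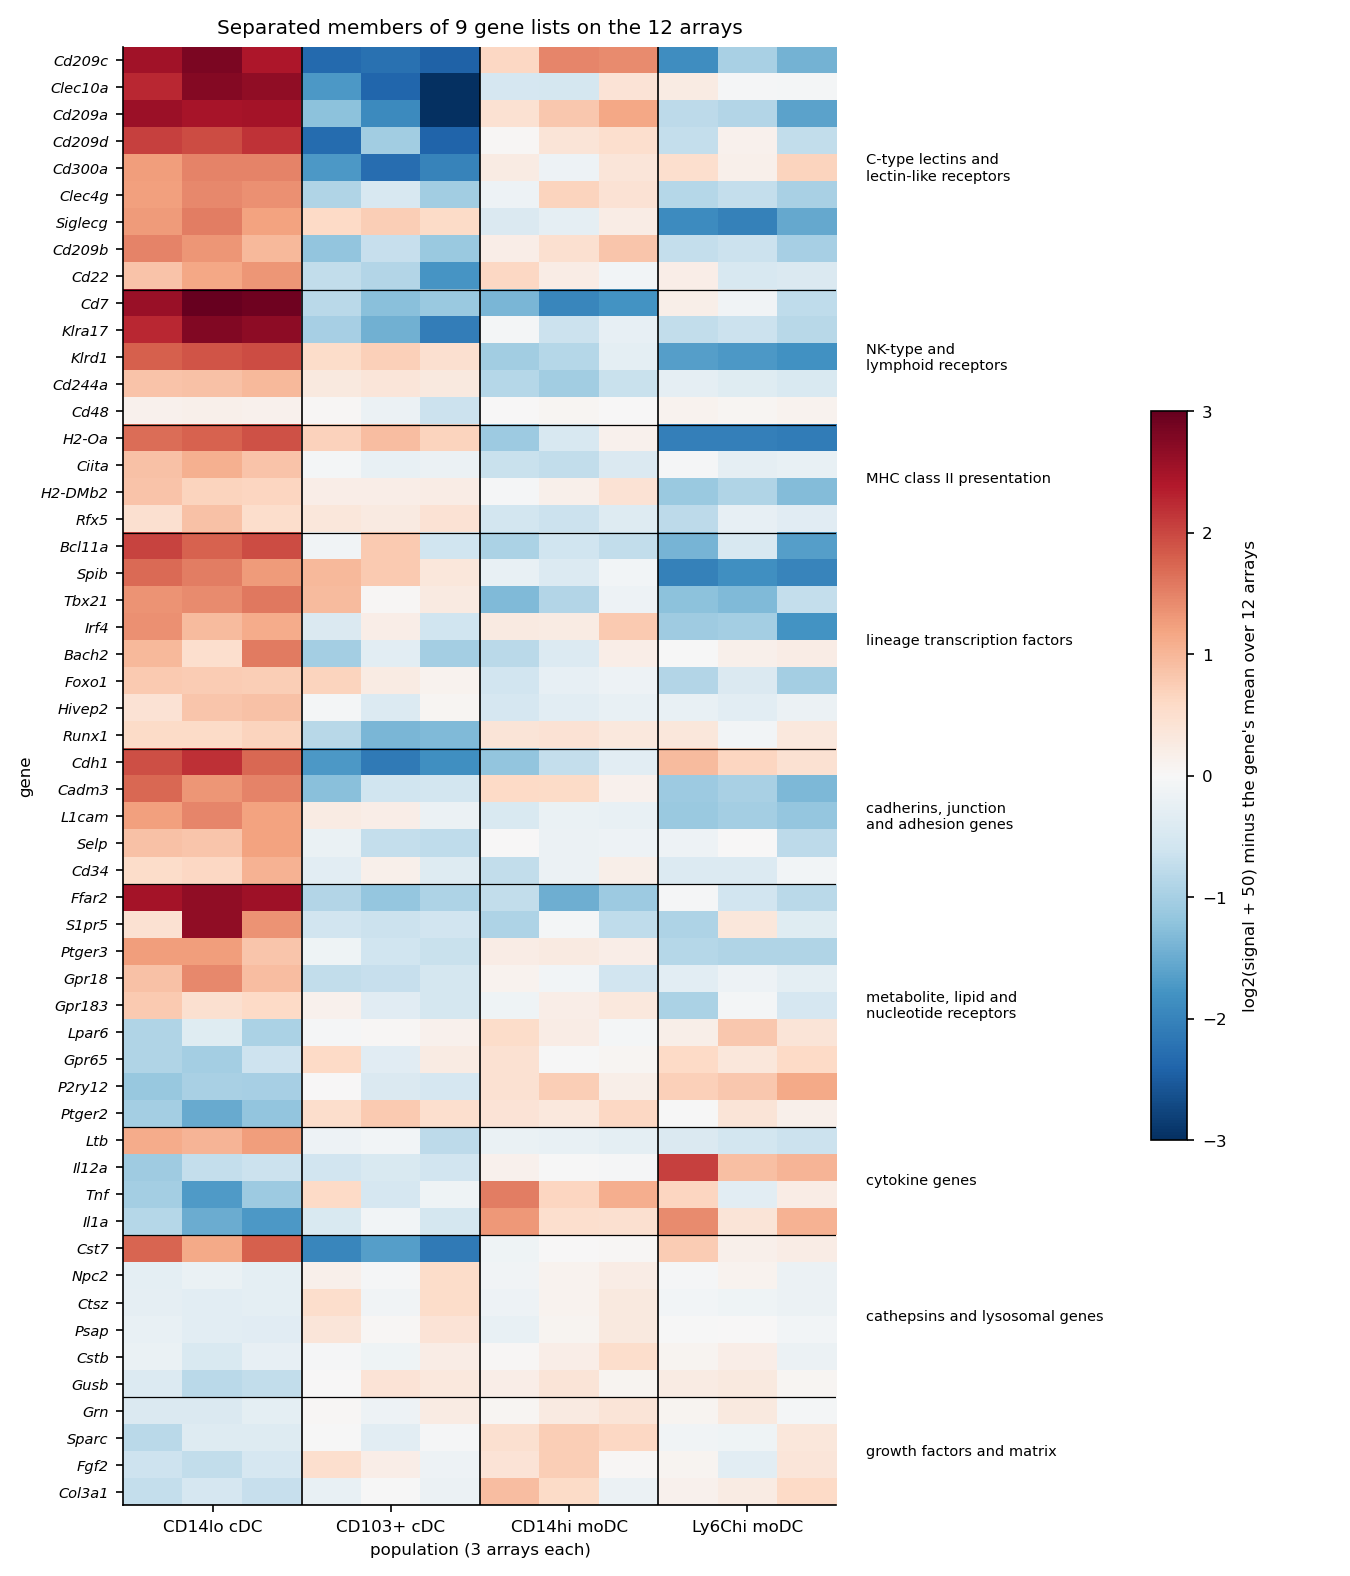
Log2 of signal plus 50, minus the gene's mean over 12 arrays, for 54 genes that were separated above or below and belong to 9 gene lists, with 1 column per array and CD14lo cDC at the left. Red is above and blue below the gene's mean. Among the genes shown, those of the lectin, NK-type, MHC class II, transcription factor and adhesion lists are red in the 3 CD14lo cDC columns. Most cytokine, lysosomal and matrix genes shown are blue there. Because only separated genes are drawn, these colours follow from the choice of genes. List members that were called but not separated, some of them in the other direction, are left out.

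Kmo and Kynu, enzymes of the kynurenine pathway of tryptophan breakdown, were both separated above. Kmo gave 3317, 3362 and 2993 in CD14lo cDC and 2671, 2434 and 2888 in CD103+ cDC, with far lower signals in both moDC, and the difference from CD103+ cDC missed the threshold (adjusted p = 0.23). Kynu averaged 1023 ± 52.5 in CD14lo cDC, against 590.4 ± 84.9 for CD103+ cDC, 328 ± 155 for CD14hi moDC and 133 ± 23.3 for Ly6Chi moDC. The next enzyme gene, Haao, was 1.97-fold higher than the mean, with 1185 ± 36.5 in CD14lo cDC, against 1318 ± 173 in CD103+ cDC. Of the whole list of arginine, tryptophan and alternative activation genes, 4 of 16 were higher and 3 lower.

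Cytokine genes were mostly lower or not called: 8 of 20 were lower and 1 higher, with a median difference of -0.42. Tnf gave 632, 374 and 597 in CD14lo cDC, against 2019.9, 922 and 1204 for CD103+ cDC, 3959, 2104 and 2869 for CD14hi moDC and 2093, 1044 and 1551 for Ly6Chi moDC, with every CD14lo cDC array below the 9 others and CD103+ cDC nearest (2.38-fold, adjusted p against each = 0.051). Il1a averaged 128 ± 58.5 in CD14lo cDC, against 297 ± 59.4 for CD103+ cDC, 729 ± 270.4 for CD14hi moDC and 835 ± 302 for Ly6Chi moDC. Il12a, the p35 chain of interleukin 12, was under the array medians in CD14lo cDC at 16.8 ± 10.3, against 260.5 ± 147 in Ly6Chi moDC. Il12a had a value under 19 of the 24 alternative settings and failed the filter on dim signals in the others. The gene that was higher was Ltb, lymphotoxin beta, a membrane cytokine of lymphoid tissue. It averaged 239 ± 24.04 in CD14lo cDC, against 56.2 ± 26.4 for CD103+ cDC, 61.2 ± 3.80 for CD14hi moDC and 40.1 ± 6.51 for Ly6Chi moDC. Ltb is 1 of the 12 genes that passed the filter on dim signals through the CD14lo cDC arrays alone, so its values are a description and no test is given. On the receptor side, Il1r2, the decoy receptor for interleukin 1, averaged 2275 ± 525 in CD14lo cDC, against 515 ± 191 for CD103+ cDC, 596 ± 386 for CD14hi moDC and 1009 ± 139 for Ly6Chi moDC and was separated above. Tnfrsf13c, the receptor for BAFF, was separated above (2.95-fold over the mean), and Tnfsf13b, which encodes BAFF, below, with 156 ± 4.42 in CD14lo cDC, against 544 ± 186 for CD103+ cDC, 975 ± 231 for CD14hi moDC and 213 ± 13.3 for Ly6Chi moDC.

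Of 28 chemokine ligands, 14 were lower and 1 higher, Ccl22, and none were separated in either direction. Ccl7, which attracts monocytes, had the largest difference from the mean among these ligands. It averaged 81.5 ± 24.3 in CD14lo cDC, against 115 ± 84.7 for CD103+ cDC, 6606 ± 1758 for CD14hi moDC and 4491 ± 1362 for Ly6Chi moDC, and the difference from CD103+ cDC was not called (adjusted p = 0.6). Among 23 Toll-like receptors and adaptors, 8 were lower and 1 higher. Ly96, the MD-2 subunit with which Tlr4 senses lipopolysaccharide, was separated below, with 467 ± 112 in CD14lo cDC, against 819.7 ± 133 for CD103+ cDC, 1143 ± 271 for CD14hi moDC and 968 ± 179 for Ly6Chi moDC. Tlr4 itself averaged 569 ± 99.8 in CD14lo cDC, against 281 ± 109 in CD103+ cDC, so CD14lo cDC lay above CD103+ cDC (adjusted p = 0.0051) and below both moDC. Of 44 interferon-stimulated genes, 5 were higher and 4 lower, shares near those of all genes, and the separated members were Ifitm1, Ifitm6 and, below, Oasl1.

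Among genes called lower against each population, Rab7b, Bst1, Igf2r, Phlda1 and Airn stood furthest below the nearest. Rab7b, a small GTPase of late endosomes, gave 893, 435 and 1011 in CD14lo cDC, against 3829, 4857 and 3554 for CD103+ cDC, 4321, 4198 and 4346 for CD14hi moDC and 3595, 4127 and 3434 for Ly6Chi moDC. The 9 other arrays ran from 3434 to 4857, and CD14lo cDC lay 4.78-fold below the nearest (adjusted p against each = 1.2e-05). Igf2r, the mannose 6-phosphate receptor that carries lysosomal enzymes and binds insulin-like growth factor 2, gave 113, 60.7 and 76.9 in CD14lo cDC, against 1292, 1229.7 and 1417 for CD103+ cDC, 479.7, 507 and 425 for CD14hi moDC and 1137, 742 and 695 for Ly6Chi moDC, 3.95-fold below CD14hi moDC. Airn, a long noncoding RNA known as the antisense transcript of Igf2r, with which its RefSeq span overlaps, gave 15.4, 7.46 and 8.07 in CD14lo cDC, against 592, 493 and 808 for CD103+ cDC, 128, 189 and 139.8 for CD14hi moDC and 119.9, 135 and 133 for Ly6Chi moDC. In both genes the mean signal was highest in CD103+ cDC and lowest in CD14lo cDC. Whether the Igf2r and Airn probe sets detect 1 strand only was not tested.

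Bst1 (CD157), which makes cyclic ADP-ribose, gave 448, 122 and 99.5 in CD14lo cDC, against 1128, 1099.8 and 989 for CD103+ cDC, 936, 994 and 774 for CD14hi moDC and 2613, 2033 and 1687 for Ly6Chi moDC, with CD14lo cDC replicate 1 above the other CD14lo cDC arrays but below the 9 others. Phlda1 averaged 1537 ± 321 in CD14lo cDC, against 5481 ± 1142 for CD103+ cDC, 7128 ± 1013 for CD14hi moDC and 5023 ± 432 for Ly6Chi moDC. The 10 genes furthest below also held Ptger2, given above, the tyrosine kinase gene Src, Plekhg1, the acyltransferase gene Agpat3 and Bcl2l1. Agpat3 averaged 229.7 ± 8.47 in CD14lo cDC, against 1268 ± 146 for CD103+ cDC, 586 ± 125 for CD14hi moDC and 698 ± 78.4 for Ly6Chi moDC. Src and Bcl2l1 were called against each with adjusted p values of 0.049 and 0.033, and remained so in 3 and 5 of 12 fits with an array left out, and Plekhg1 in 8. In 8 other settings Src kept the call in 3, Bcl2l1 in 4 and Plekhg1 in 8. Bcl2l1, the survival factor Bcl-xL, gave 541, 263 and 459.9 in CD14lo cDC, against 2186, 1467 and 1123 for CD103+ cDC, 1125, 1074 and 864 for CD14hi moDC and 832, 1119 and 895 for Ly6Chi moDC, whereas its relative Bcl2 was 2.40-fold higher than the mean, while its difference from CD14hi moDC missed the threshold (adjusted p = 0.65). Of the 20 genes called lower against each, 8 remained called whichever array was left out: Rab7b, Bst1, Igf2r, Phlda1, Ptger2, Agpat3, Airn and Gatm. The call also held in all 8 other settings for 6 of them. Agpat3 and Airn lost it when their probe sets were averaged.

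**Figure D4:**
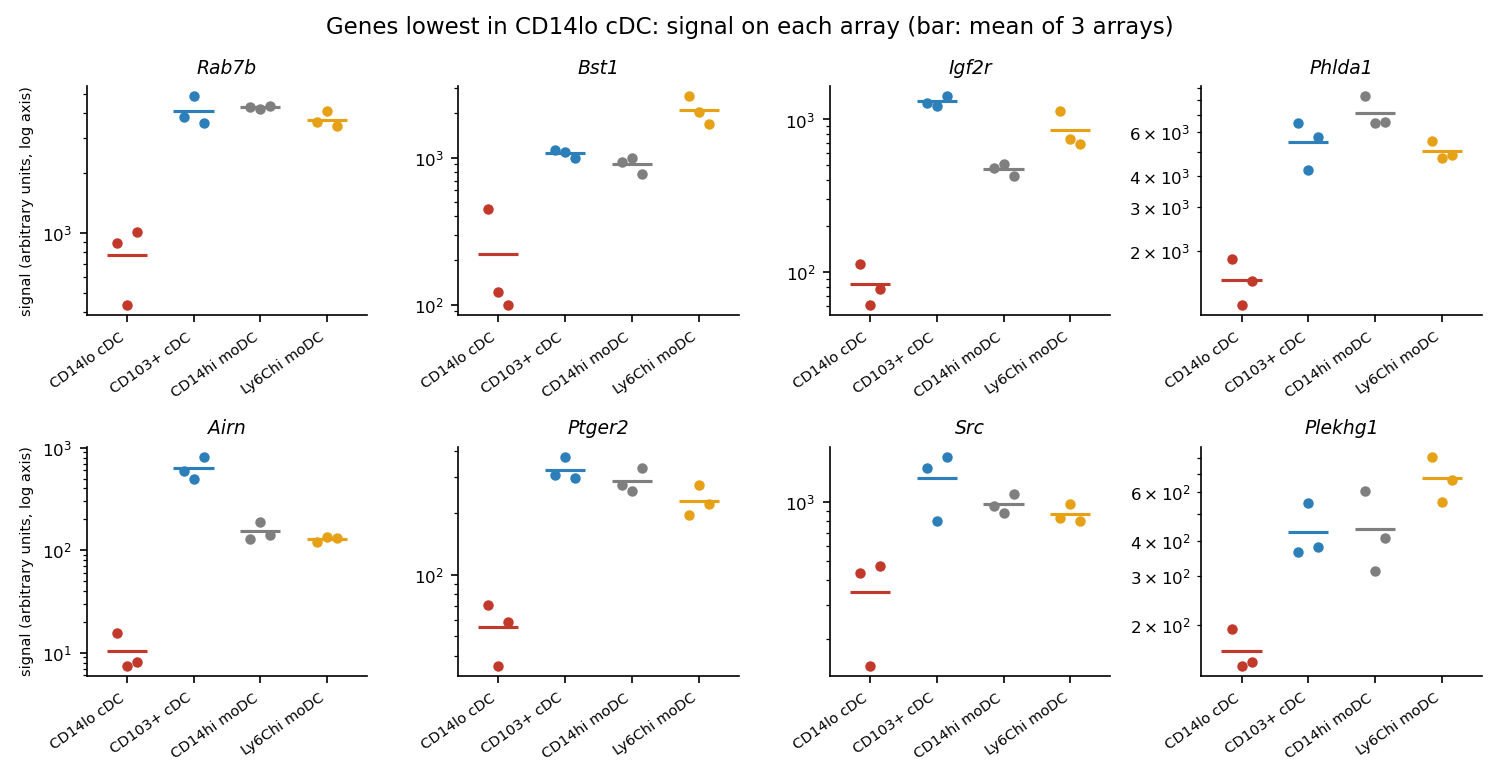
Signal of 8 genes on each of the 12 arrays, on log axes in arbitrary units, with CD14lo cDC at the left and a bar at the mean of 3 arrays. The 3 CD14lo cDC points lie below the 9 others in every panel, at 435 to 1011 for Rab7b, where the other arrays run from 3434 to 4857.

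Of 33 cathepsin and lysosomal genes, 14 were lower and 3 higher, with 5 separated below and 1 above. Gusb, beta-glucuronidase, averaged 1622 ± 259 in CD14lo cDC, against 3059 ± 447 for CD103+ cDC, 2996 ± 327 for CD14hi moDC and 2946 ± 259.5 for Ly6Chi moDC and was called lower against each (adjusted p = 0.008). The Gusb call held in 10 of 12 fits with an array left out and in 7 of 8 other settings. Npc2, Ctsz, Psap and Cstb were separated below by small margins, with folds from 1.27 to 1.33 against the mean. Cst7, cystatin F, an inhibitor of endosomal proteases, was the member separated above. It gave 692, 442 and 718 in CD14lo cDC, against 6.82, 20.6 and 0.952 for CD103+ cDC, 153, 176 and 176 for CD14hi moDC and 327, 198 and 210.1 for Ly6Chi moDC and was called against each (adjusted p = 0.017), in 8 of 12 fits with an array left out and 5 of 8 other settings. Of 27 growth factor and matrix genes, 18 were lower and 1 higher, Emilin2, with a median difference of -0.73. Separated below were Grn, Sparc, Fgf2 and Col3a1. Of these, Fgf2 had a value under 19 of the 24 alternative settings and failed the filter on dim signals in the others. Igf1 averaged 49.02 ± 24.4 in CD14lo cDC, against 72.4 ± 19.6 for CD103+ cDC, 3763 ± 233 for CD14hi moDC and 742 ± 171 for Ly6Chi moDC, and its difference from CD103+ cDC missed the threshold (adjusted p = 0.29).

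Fibroblast markers moved with these matrix genes. Of 9 tested, 7 were lower and none higher, and Sparc, Col3a1 and Bgn were separated below. Sparc, Col3a1 and Dcn stand in both lists. The summed signal of the markers over 10 genes ran from 2140 to 2499 in CD14lo cDC, against 2480 to 3007 for CD103+ cDC, 6922 to 8020 for CD14hi moDC and 3853 to 5778 for Ly6Chi moDC. The part of such cells in the matrix result was not tested. Alveolar macrophage markers summed to 4542, 5858 and 15303 in the CD14lo cDC arrays, the highest being replicate 1, against 6009 to 12695 for CD103+ cDC, 6063 to 10086 for CD14hi moDC and 8069 to 10215 for Ly6Chi moDC. Chil3, a secreted macrophage protein, had 3941, 589.7 and 397 in the same arrays and was not called. Of 11 alveolar macrophage markers tested, 2 were higher than the mean and 1 lower, and none were separated. Plasmacytoid DC, which express Bcl11a, Spib and Klra17, were checked by 9 markers, of which 1, Smim5, was higher. In this list 1 marker was separated above and none below. The sums ran from 5953 to 8135 in CD14lo cDC, against 4887 to 6069 for CD103+ cDC, 7224 to 8164 for CD14hi moDC and 8608 to 9436 for Ly6Chi moDC. Siglech, which defines plasmacytoid DC, averaged 116 ± 42.8 in CD14lo cDC, against 344 ± 31.4 for CD103+ cDC, 85.7 ± 22.3 for CD14hi moDC and 82.5 ± 1.48 for Ly6Chi moDC. The part of alveolar macrophages or plasmacytoid DC in the results was not tested.

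**Figure D5:**
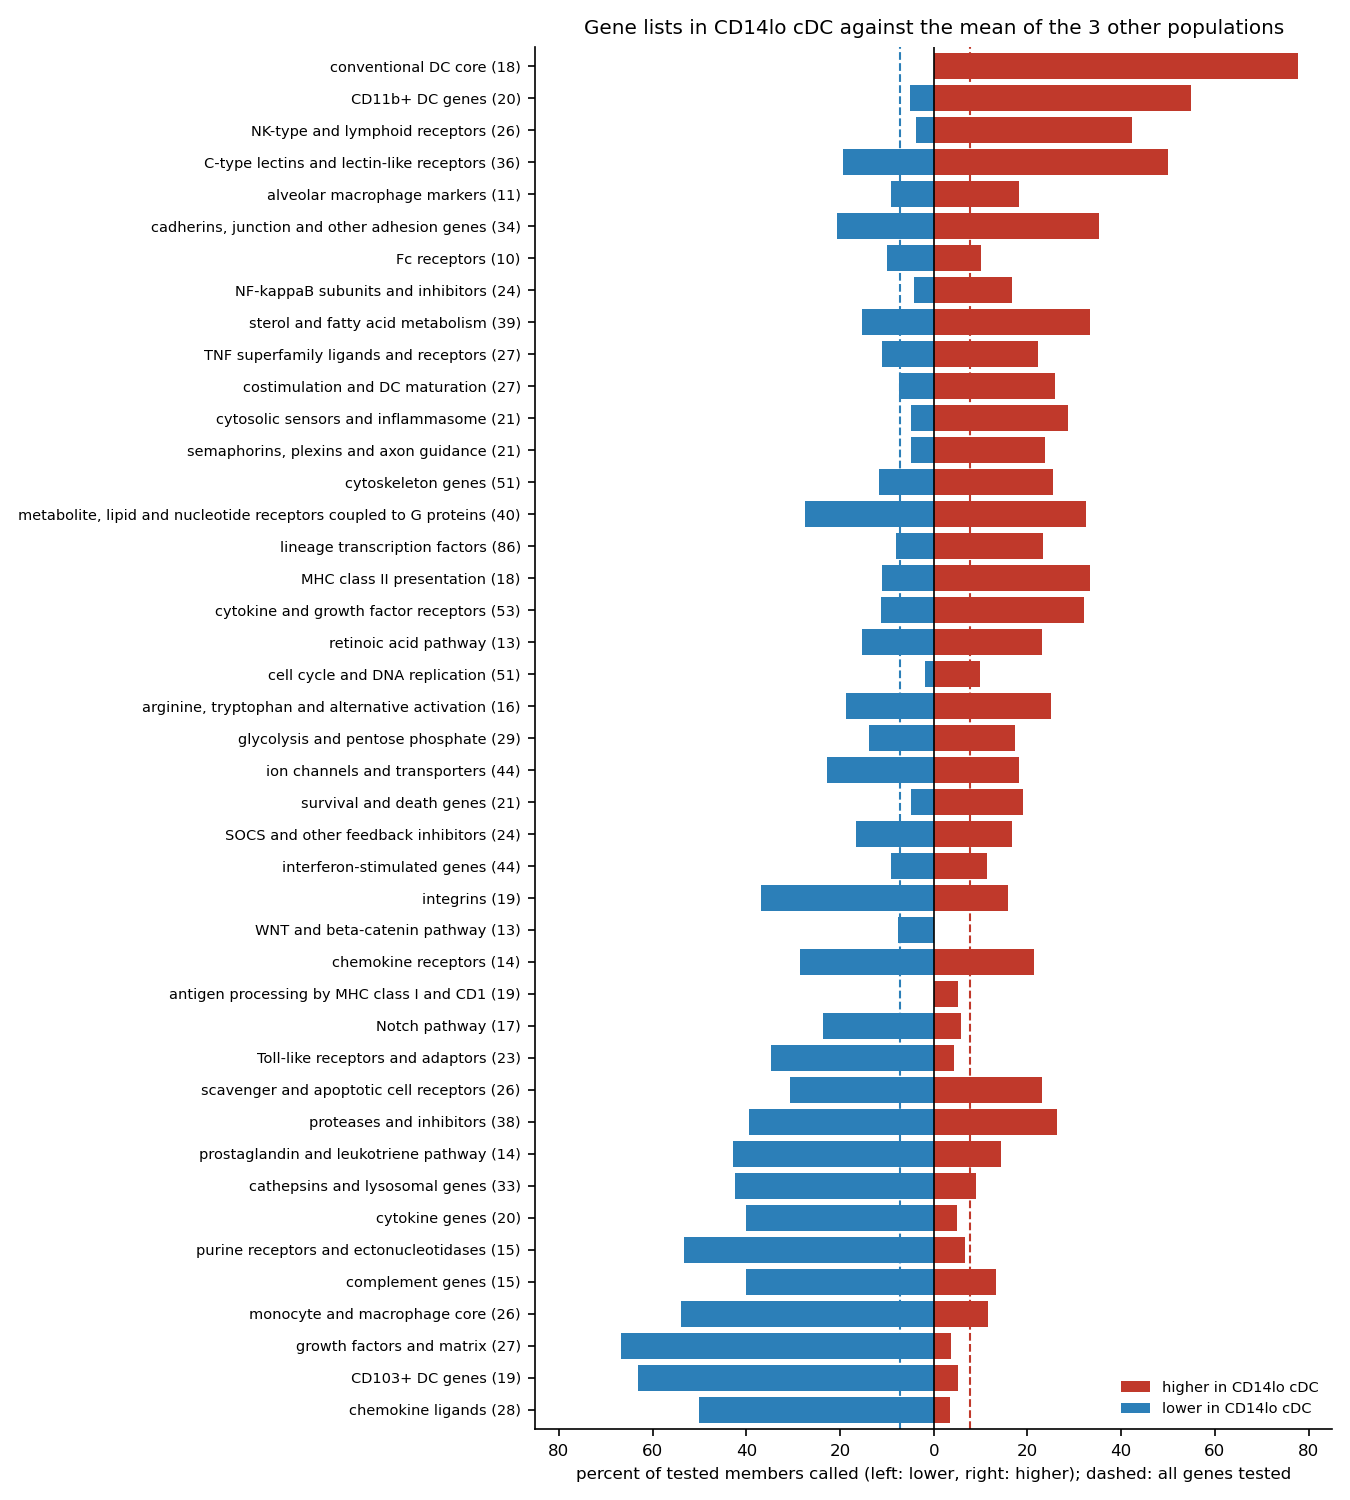
For each of 43 gene lists with at least 10 tested genes (number in brackets), the bar to the right gives the percent of tested members higher in CD14lo cDC and the bar to the left the percent lower, against the mean of the 3 other populations. Dashed lines mark the shares over all genes, 7.64% higher and 7.12% lower. Conventional DC core genes reach 77.8% higher, and growth factors and matrix 66.7% lower. The summed signal of the core was nevertheless higher in CD103+ cDC than in CD14lo cDC.

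Other enzymes and surface genes called higher against each were Lta4h, which makes leukotriene B4, the peptidase gene Ace, Acss2, which turns acetate into acetyl-CoA, Fh1, fumarate hydratase, and the cell cycle gene Ccnd3. With an array left out the call held in 12 of 12 fits for Fh1 and Ccnd3, in 11 for Lta4h and Acss2 and in 9 for Ace. Ccnd3 also kept the call in 8 of 8 other settings. Fh1, Lta4h and Ace lost it with each array centred at its median, and Acss2 with the mean of its probe sets. Acss2 averaged 1478 ± 290.3 in CD14lo cDC, against 420.5 ± 93.9 for CD103+ cDC, 489 ± 96.9 for CD14hi moDC and 350.4 ± 162 for Ly6Chi moDC. Ace averaged 974 ± 96.9 in CD14lo cDC, against 109 ± 40.3 for CD103+ cDC, 162 ± 13.1 for CD14hi moDC and 454 ± 18.5 for Ly6Chi moDC. Ccnd3 averaged 3245 ± 125 in CD14lo cDC, against 1366 ± 406 for CD103+ cDC, 881 ± 125 for CD14hi moDC and 940.0 ± 145 for Ly6Chi moDC, nearest to CD103+ cDC, whereas Acss2 was nearest to CD14hi moDC and Ace to Ly6Chi moDC. Among 51 cell cycle and DNA replication genes 5 were higher (9.80%) and 1 lower (1.96%), against 7.64% and 7.12% of all genes tested. Slc2a3, the glucose transporter GLUT3, was separated above at 3.39-fold over the mean.

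The edge of the separation rule ran through small differences. Just inside above were Fbrsl1, with a lowest CD14lo cDC signal of 401.3, against 401.0 in a CD103+ cDC array, and B9d2, with 641, against 640.2 in an Ly6Chi moDC array. Just outside above were Mrps18b and Maco1, where 1 CD14lo cDC array had 2003 and 1204, against 2004 in CD14hi moDC and 1205 in CD103+ cDC. Just inside below were Psap and Gas7, and just outside below Lacc1 and Spink2. Gas7 averaged 441 ± 19.7 in CD14lo cDC, against 552 ± 90.4 for CD103+ cDC, 2579 ± 308 for CD14hi moDC and 2971 ± 521 for Ly6Chi moDC, with CD103+ cDC the nearest. Where separated genes had other kept probe sets, 236 of 246 had the same sign above and 168 of 178 below, and 99 and 40 of them were separated in the same direction.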

How the data were processed

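RNA from the sorted cells, 50 ng a sample, was amplified, biotin-labelled and hybridized to Affymetrix mouse arrays, per the labels' protocols. The deposited values are linear signal intensities from MAS5, per the submitters' processing notes. The version of that program is not given in the sources used. From the values, all 12 arrays are scaled to the same trimmed mean, 500.003. No detection calls were used. The labels do not say whether arrays with the same number share mice.

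Probe sets were named from the platform table, updated through RefSeq. Of 45101 probe sets, 34945 had 1 symbol, 932 several and 9160 none. Probe sets above the median of their array on at least 3 of 12 arrays were kept, and each gene took its brightest kept probe set. Log2(signal + 50.0003) was fitted with limma 3.58.1 in R 4.3.3, with 4 population means, an intensity trend and 8 residual degrees of freedom. P values were adjusted by the Benjamini-Hochberg method over all 10929 genes, with a call at under 0.05. The precision is limited by 3 arrays per population, and p values measure the spread between pools. The fit was tested on simulated data.

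The gene lists and members were chosen with earlier results of these data known. Named genes are the markers and the 15 and 10 called against each that lie furthest from the nearest population. They also hold the largest differences from the mean, and up to 4 separated and 3 other called genes per list. The 2 genes on each side of the separation edges complete them. Acss2, Bach2, Cd209b, Cd22, Cd300a, Cd48, Cd74, Ch25h, Chil3, Clec4g, Ctnnd1, Ctsz, Emilin2, Fh1, Foxo1, Gatm, Gpr18, Gpr183, Gpr65, H2-Aa, Hivep2, Lpar6, Npc2, Runx1, Siglecg, Siglech and Tlr4 were added after their values were seen. Alternatives covered normalization, filter, pseudocount, probe sets, weights, variance model, replicate block and left-out arrays.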

Additional observations from a re-analysis of the deposited data

Results flagged for a closer look

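Probe sets without a single gene symbol took no part in the comparisons, and some of them also set CD14lo cDC apart. Of 3396 kept probe sets with no symbol, 70 (2.06%) had all 3 CD14lo cDC arrays above the 9 others and 23 (0.677%) had them below. Of 604 kept probe sets with several symbols, 11 (1.82%) lay above and 5 (0.828%) below. Among genes tested the shares were 2.7% above and 1.74% below. Of the unnamed probe sets above, 1 averaged 903 ± 121 in CD14lo cDC, against 232 ± 28.5 for CD103+ cDC, 201 ± 89.98 for CD14hi moDC and 285 ± 42.0 for Ly6Chi moDC (SD, n = 3 each). Of the unnamed probe sets below, 1 averaged 8.46 ± 8.24 in CD14lo cDC, against 705 ± 113 for CD103+ cDC, 130 ± 32.8 for CD14hi moDC and 76.4 ± 24.8 for Ly6Chi moDC.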

How the results depend on the processing

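Counts stayed within 1.5 times the reported ones under quantile normalization, pseudocounts of 16 and 100, a fit with no intensity trend and filters on the mean or none. With each array centred at its median, 36 genes were higher and 10 lower against each population. With every probe set on its own, 1372 were higher and 1248 lower than the mean and 495 lay above all other arrays, out of 21138 tested by construction. With the 9 other arrays as 1 group, whose spread then holds the differences between populations, 82 were higher and 35 lower. With an array left out, 592 to 870 genes were higher and 490 to 750 lower than the mean, and 27 to 56 higher and 11 to 19 lower against each. Separated genes then numbered 306 to 440 above and 200 to 367 below, since fewer arrays have to part. CD14lo cDC replicate 2 left 27 and 12 genes called against each when removed, and replicate 3 left 29 and 11. Without CD14hi moDC replicate 1 or Ly6Chi moDC replicate 1, 13 were lower against each.

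Same-numbered arrays of different populations had deviation correlations from -0.11 to 0.24 over 18 pairs, with a median of 0.056. Pairs with different numbers ran from -0.27 to 0.23, with a median of -0.019. The ranges overlap, so they cannot tell whether arrays with the same number share mice. With the replicate number as a block, 894 genes were higher and 816 lower than the mean, and 73 and 23 against each. Of 229 named genes, 185 had a value under all 24 alternatives and 44 under 19 to 23. In all, 5122 values kept their direction and side of the threshold, 293 lost the call and 1 gained it (Itgax, quantile normalization). Itgae, not called, turned to -0.119 with the mean of its probe sets (adjusted p = 0.776, limma). In the alternatives run for each gene, other than the 1-group fit, 195 genes kept their direction and side of the threshold and 34 did not. Itgae is 1 of the 34 through its direction alone. In the 1-group fit 48 of the 229 genes were called. With that fit counted, 181 genes changed in at least 1 alternative. Depth cannot be judged without detection calls, and signals near the array medians give no reliable fold.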
